A study of Homo sapiens with 3 samples.

Results

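The mitochondrial ribosomal protein genes were chosen by symbol: transcript clusters with a single gene symbol, MRPL or MRPS followed by a number and at most a letter A to C, with the brightest cluster kept for a gene that had more than 1. This gave 67 of the 14410 genes with a cluster of their own, 44 with MRPL and 23 with MRPS symbols. Another 10 genes of the ribosome, MRPL3, MRPL9, MRPL45, MRPL53, MRPL57, MRPS6, MRPS12, MRPS18A, MRPS18C and MRPS28, lay only on clusters that list several genes and were not analysed here.

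The levels come from exon arrays of total RNA from 3 human cell lines, each hybridised once. The HT-29 cells, from a colon adenocarcinoma, had received interferon gamma (IFN-γ) at 200 U/ml for 24 h and grew in McCoy's 5A medium with 10% fetal bovine serum. MCF10A, a mammary epithelial line that is not tumorigenic, grew in DMEM/F12 with 5% horse serum, epidermal growth factor at 20 ng/ml, hydrocortisone at 500 ng/ml, cholera toxin at 100 ng/ml and insulin at 10 µg/ml. MDA-MB-436, a breast adenocarcinoma line, grew in L-15 medium with 10% fetal bovine serum and without CO2. Untreated HT-29 cells were not analysed here, and line, medium and cytokine cannot be told apart in any difference from HT-29. With 1 array a line there was no replicate spread, so no test, error or p-value could be given, and every difference describes these 3 arrays.

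The mitochondrial ribosome translates the few proteins that mitochondrial DNA encodes, which are core subunits of the respiratory chain and of ATP synthase. Its ribosomal RNA comes from mitochondrial DNA, but its proteins are encoded in the nucleus, made in the cytosol and imported. Many descend from bacterial ribosomal proteins, and others are found only in mitochondria, where they surround a shortened ribosomal RNA. The large subunit joins amino acids and holds the exit tunnel, and the small subunit binds and decodes the messenger RNA. Some MRPS genes, such as MRPS30, encode proteins that sit in the large subunit and are counted with it here.

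A background intensity of 29.9 was taken as the 95th percentile of 228 olfactory receptor genes, whose highest value was 101. Over all clusters the median intensity was 75.1 to 81 and the 95th percentile 966 to 1214, lowest in MDA-MB-436. The lines could be told by some of their markers. KRT20, VIL1 and LGALS4 for colon were above background in HT-29 only, and the basal keratin gene KRT14 in MCF10A only. The N-cadherin gene CDH2 was at 708 in MDA-MB-436, where CDH1 was at 10.3. The colon genes CDX2 at 74.8 and CDH17 at 21.3 were dim in HT-29. CDX2 also exceeded background in the mammary lines, with 53.2 for MCF10A and 51.9 for MDA-MB-436. Other markers overlapped between lines. MCF10A and HT-29 had similar ITGB4 intensities, 1281 and 1313.5. VIM reached 1933 for MCF10A, near the 2038 of MDA-MB-436. SERPINB5 was brightest for MCF10A, at 1892, but its 95.9 for HT-29 also exceeded background. EPCAM, brightest for HT-29 at 2107, still had 360 for MCF10A and 34.9 for MDA-MB-436. Of 5 measured markers of leukocytes and endothelium, only CD14 exceeded background, at 38.9 for HT-29, 156 for MCF10A and 86.5 for MDA-MB-436; the 5 summed to 75.6, 191 and 129, and their part in the results was not tested. The interferon-induced gene IRF1 was at 3961 for HT-29, 94.9 for MCF10A and 326 for MDA-MB-436.

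All 67 members exceeded background in HT-29 and MDA-MB-436, and 66 did in MCF10A, where the exception was MRPL49. The median member intensity was 439 for HT-29, 587 for MCF10A and 378 for MDA-MB-436. MCF10A had the highest value for 45 members, HT-29 for 13 and MDA-MB-436 for 9. Among the 10709 genes above background on any array, 33.4% were highest in MCF10A, 37.8% in HT-29 and 28.8% in MDA-MB-436. The members' 67.2% in MCF10A was thus well above the share of all genes, but not particular to this ribosome. MCF10A was also highest for 32 of 47 nuclear respiratory chain genes, 10 of 14 mitochondrial translation factors and 9 of 13 genes of mitochondrial DNA expression. After quantile normalization these counts were 29, 6 and 9, and as many translation factors, 6, were highest in MDA-MB-436. As deposited, MCF10A was highest for smaller shares of assembly factors, at 9 of 18, tRNA synthetases, at 8 of 17, and cytosolic ribosomal proteins, at 28 of 52. Of the 53 measured cytosolic ribosomal protein genes, 52 entered this count. The lowest value lay in MDA-MB-436 for 36 members, in HT-29 for 27 and in MCF10A for 4, where all genes above background had 36.7%, 32.4% and 30.9%. After quantile normalization this order turned, with 32 lowest in HT-29, 28 in MDA-MB-436 and 7 in MCF10A. Quantile normalization left 39 members highest in MCF10A, or 58.2%, and raised those highest in MDA-MB-436 to 17, whereas median centring gave 48 and 5.

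**Figure D1:**
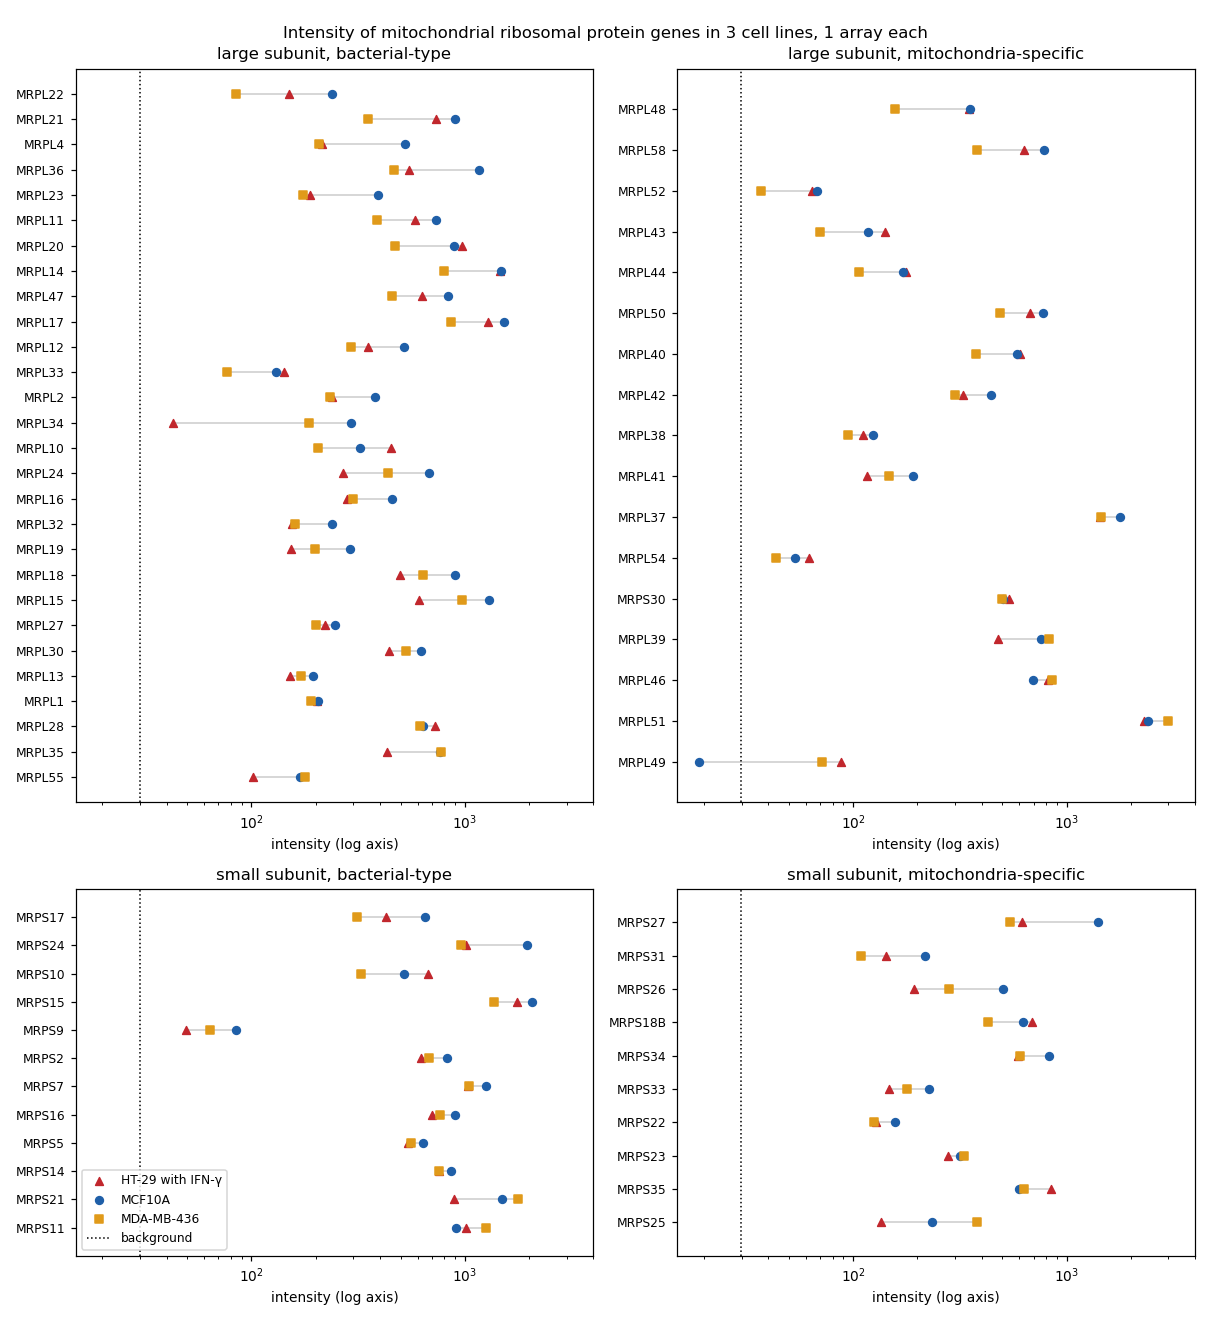
Intensity of the 67 genes (log axis) by subunit and origin, 1 point per line and gene, with the background of 29.9 dotted and a grey bar from the lowest to the highest array. MCF10A (circles) is rightmost for 45 genes, MRPL34 is far left in HT-29 and MRPL49 lies below background in MCF10A.

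**Figure D2:**
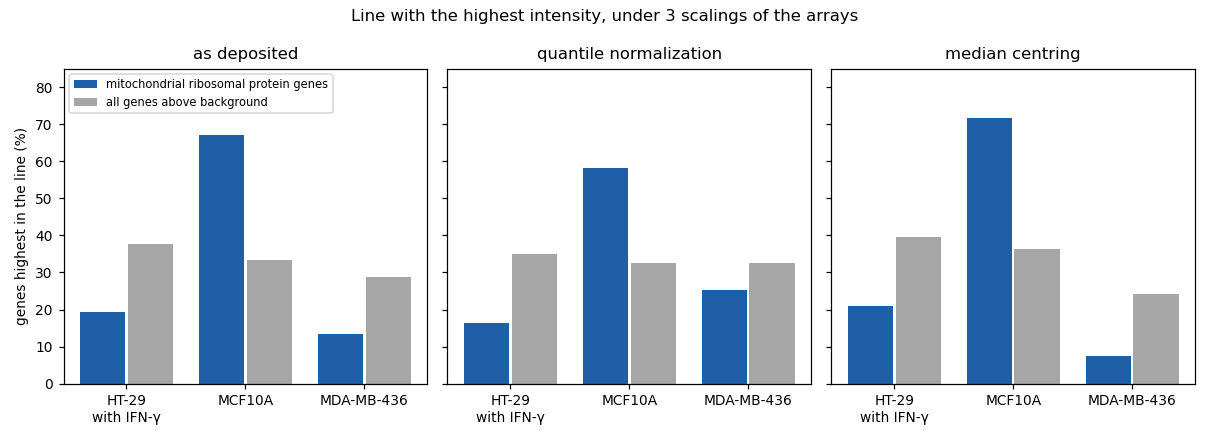
Percent of genes with their highest intensity in each line, for the 67 members (blue) and for all genes above background on any array (grey), with the arrays as deposited and rescaled in 2 ways. The members' bar for MCF10A stands at 67.2%, 58.2% and 71.6%, above the grey bar each time.

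The members' median spread between lines was slightly smaller than that of all genes above background, and wide ranges were fewer. The highest array exceeded the lowest by a median of 1.73-fold, against 1.89-fold for all genes above background. A range under 1.5-fold was seen for 32.8% of members and 28.8% of those genes. A range of 2-fold or more was seen for 21 members, or 31.3%, against 45.8% of all those genes, and 2 members, MRPL34 and MRPL49, passed 4-fold, the second with its lowest value under background. The most even member was MRPS30, whose protein sits in the large subunit, at 534 for HT-29, 503 for MCF10A and 500.4 for MDA-MB-436. MRPL1, at 202, 206 and 190 in that order of lines, MRPS14 at 753, 859 and 759, MRPS5 at 541, 635 and 558, and MRPL28 at 724, 634 and 614 came next. In these 5 genes no line exceeded another by more than 1.18-fold.

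The first comparison is that of the 2 mammary lines, MDA-MB-436 from a cancer and MCF10A not tumorigenic. Most members had the lower intensity in MDA-MB-436, by a modest amount: 56 of 67 were lower there, or 83.6%, against 54.3% of all genes above background in that pair, and 11 were higher, against 45.7%. The median log2 difference was -0.55, a 1.46-fold lower level, against -0.078 for all those genes. It was -0.40 after quantile normalization, when 48 members were lower, and -0.66 after median centring, which moved all genes above background to -0.19. At least 2-fold lower were 10 members, or 14.9%, and 1 was at least 2-fold higher, or 1.49%. The same calls covered 12.2% of all genes above background in each direction, or 8.74% and 8.76% of all 14410 genes. No member passed 4-fold in either direction, where 2.81% of those genes were lower and 5.1% higher. At 1.5-fold 31 of the 67 members were lower and 2 higher. Of those genes 25% were lower and 20.9% higher, so the members' lower share was larger and their higher share smaller. As deposited, the share of lower members was thus near the background at 2-fold only. The difference from all genes then lay in the shift of the median, in the members 1.5-fold lower and in the small number of higher members. Within 1.5-fold lay 50.7% of members as deposited and 64.2% after quantile normalization, against 54.1% and 55.5% of genes above background. The 1.5-fold counts of members thus depend on the scaling.

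Proteins of the large subunit with bacterial relatives had the lowest median of the 4 groups, at -0.66, with 26 of 28 genes lower. At least 2-fold lower were 5, or 17.9% of the group, against 12.2% of genes above background. MRPL22, whose bacterial relative lines the exit tunnel, had an intensity of 238 for MCF10A, 150 for HT-29 and 84.7 for MDA-MB-436. It was 2.81-fold lower in MDA-MB-436 than in MCF10A, the largest difference in that direction, with HT-29 between them. MRPL21 was at 900.1 for MCF10A, 735 for HT-29 and 351 for MDA-MB-436, so only MDA-MB-436 stood apart. MRPL4, another protein of the tunnel wall by its bacterial relative, was at 526 for MCF10A, 215 for HT-29 and 208 for MDA-MB-436. MRPL36, which encodes one of the smallest proteins of the subunit, was at 1161, 546 and 464 in the same order, and MRPL23 at 390.5, 189 and 174. In these last 3 genes MCF10A stood alone, at least 2-fold above both other lines. The stalk that recruits translation factors is formed by MRPL10 and MRPL12, which were 1.57-fold and 1.77-fold lower in MDA-MB-436 than in MCF10A.

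The large-subunit proteins found only in mitochondria had a median of -0.39, with 13 of 17 genes lower. MRPL48 was at 353 for MCF10A, 349 for HT-29 and 158 for MDA-MB-436, 2.24-fold lower in MDA-MB-436. MRPL58, a peptidyl-tRNA hydrolase built into the ribosome, was at 784, 632 and 380 in the same order, and its 2.06-fold difference passed 2-fold as deposited but not after quantile normalization. MRPL49 went the other way. Its intensity was 19 in MCF10A, below background, 71.3 in MDA-MB-436 and 87.6 in HT-29, so it exceeded MCF10A at least 2.38-fold for MDA-MB-436 and at least 2.93-fold for HT-29. All its values lay under the highest olfactory receptor value of 101. MRPL51 and MRPL46 were highest in MDA-MB-436, at 2997 and 851 against 2407 and 697 in MCF10A, which is 1.25-fold and 1.22-fold.

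In the small subunit, proteins with bacterial relatives had a median of -0.28, with 10 of 12 genes lower, but quantile normalization brought that median to 0.025, so its direction is not settled. MRPS24, a relative of the bacterial protein at the messenger RNA entry, was at 1949.99 for MCF10A, 1009.6 for HT-29 and 962 for MDA-MB-436, 2.03-fold lower in MDA-MB-436. MRPS17 was at 650, 429 and 312 in that order, 2.08-fold lower, and both dropped under 2-fold after quantile normalization. The proteins of the small subunit found only in mitochondria had a median of -0.40, or -0.23 after quantile normalization, with 7 of 10 lower. MRPS27, a protein of the pentatricopeptide repeat family, was at 1403 for MCF10A, 621 for HT-29 and 545 for MDA-MB-436, at least 2-fold above both other lines like MRPL4, MRPL23 and MRPL36. These 4 genes were 5.97% of the members, near the 5.03% of all genes above background with that pattern. MRPS25 was the member furthest in favour of MDA-MB-436 after MRPL49, at 378 against 233 in MCF10A, or 1.62-fold, and MRPS11 followed at 1253 against 904.

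**Figure D3:**
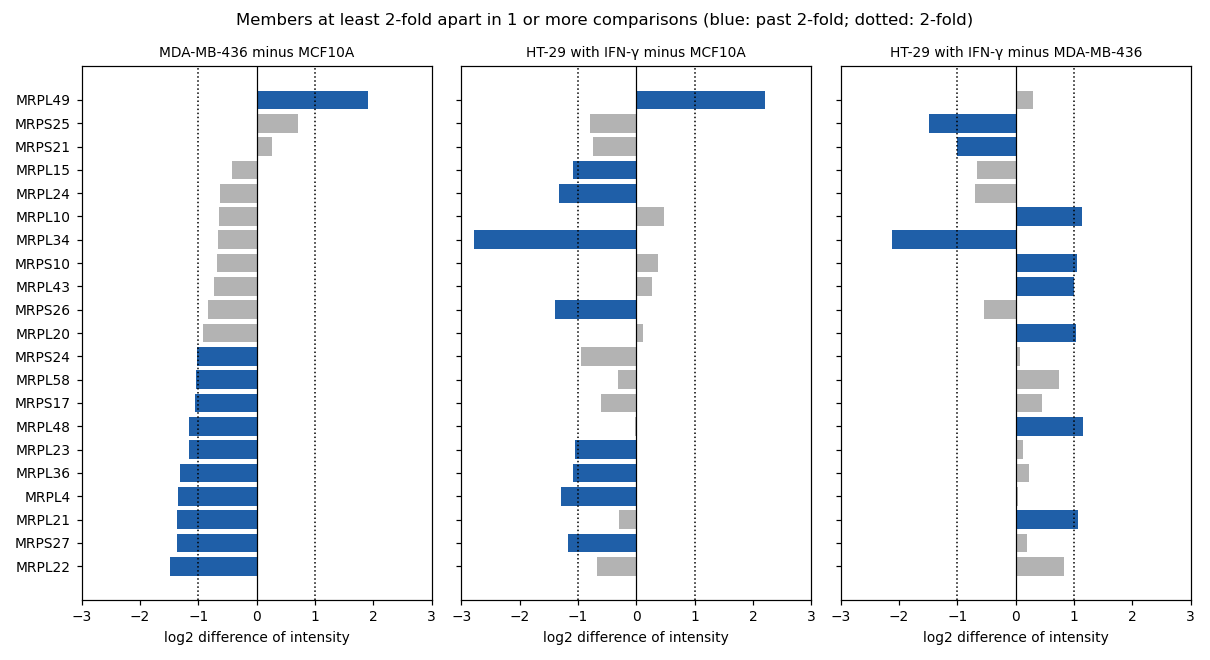
Log2 difference of intensity for the 21 members at least 2-fold apart in any comparison, 1 panel per pair of lines. Blue bars pass 2-fold (dotted lines) with the brighter array above background. In the panels against MCF10A every blue bar but that of MRPL49 points down, and MRPL34 reaches -2.78.

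Several members lay just short of 2-fold. MRPS31 was at 217 for MCF10A, 142 for HT-29 and 109 for MDA-MB-436, so that its difference between the mammary lines just missed the threshold. MRPL11, at the base of the stalk, was at 735, 587 and 388 in that order, and MRPL14 at 1479, 1453 and 796. MRPL11, MRPL14, MRPL20 and MRPS31 passed 2-fold after median centring, and MRPL52 after quantile normalization. In MRPL14, as in MRPL48, HT-29 and MCF10A were nearly level and only MDA-MB-436 was lower. MRPL47, MRPL33 and MRPL44 had log2 differences of -0.87, -0.77 and -0.67 between the mammary lines. At the other end, MRPL35, MRPL39, MRPL55 and MRPS23 each had slightly more signal in MDA-MB-436 than MCF10A, by 0.016 to 0.12 on the log2 scale, and were lowest in HT-29.

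HT-29 with IFN-γ was lower than MCF10A in 52 of 67 members, or 77.6%, against 49.3% of all genes above background in that pair, and higher in 15, against 50.7%. The median log2 difference was -0.33, or 1.25-fold, against 0.012 for all those genes, and it was -0.32 after quantile normalization and -0.34 after median centring. At least 2-fold lower were 8 members, or 11.9%, against 14.3% of all genes above background and 10.1% of all genes. Only MRPL49 was at least 2-fold higher, or 1.49%, against 14.4% and 10.2%. Past 4-fold were MRPL34, lower, and MRPL49, higher by its measured values, against 4.96% and 6.14% of genes above background. At 1.5-fold 25 of the 67 members were lower and 1 higher. Of those genes 24.6% were lower and 23.6% higher, so the members' lower share was larger and their higher share smaller. The same 8 lower members passed under both rescalings. This comparison shares the MCF10A array with the preceding one, so the 2 are not independent.

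The difference was uneven over the ribosome. Large-subunit proteins with bacterial relatives had a median of -0.59, with 24 of 28 genes lower. They held 6 of the 8 genes at least 2-fold lower. These were 21.4% of the group, against 14.3% of genes above background. The mitochondria-specific proteins of the same subunit had a median of -0.064, or -0.12 after quantile normalization, with 10 of 17 genes lower and none at least 2-fold lower. In the small subunit the medians were -0.32 for proteins with bacterial relatives and -0.55 for the others. There 0% and 20% were at least 2-fold lower, in groups of 12 and 10 genes. The direction of each of these 4 medians was kept under both rescalings, and the difference between groups was not tested.

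MRPL34, a relative of a small basic bacterial protein, had the largest difference of any member. Its intensity was 42.7 for HT-29, 293 for MCF10A and 186 for MDA-MB-436, so HT-29 was 6.87-fold below MCF10A and 4.35-fold below MDA-MB-436. The HT-29 value lay above background but under the highest olfactory receptor value. MRPS26, a small-subunit protein found only in mitochondria, was at 193 for HT-29, 504 for MCF10A and 281 for MDA-MB-436. MRPL24, a protein near the tunnel exit by its bacterial relative, was at 269, 677 and 437, and MRPL15 at 610.4, 1298 and 972. In these 3 genes, as in MRPL34, HT-29 was lowest and MCF10A highest, by 2.61-fold, 2.51-fold and 2.13-fold. The members furthest in favour of HT-29 after MRPL49 were MRPS35, at 845 against 599.5 in MCF10A, and MRPL10, at 451 against 323, neither of which reached 2-fold.

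HT-29 and MDA-MB-436 had no common direction over the members. The median log2 difference was 0.089, against 0.081 for all genes above background, and it turned to -0.052 after quantile normalization. Higher in HT-29 were 38 members and lower 29, where 54.3% of all those genes were higher and 45.7% lower. At least 2-fold higher were 6 members, or 8.96%, against 15.8% of all genes above background and 11.5% of all genes, and at least 2-fold lower were 3, or 4.48%, against 15% and 11%. Past 4-fold was MRPL34 alone, lower, against 6.41% of genes above background lower and 5.76% higher. At 1.5-fold 15 of the 67 members were higher and 8 lower. Of those genes 27.4% were higher and 23.7% lower, so both shares of the members were smaller. After quantile normalization 2 were higher and 5 lower, so this split depends on the scaling.

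The 6 higher genes were MRPL48, MRPL10, MRPL21, MRPS10, MRPL20 and MRPL43, at 2.21-fold to 2.01-fold, of which MRPL48 and MRPL43 kept 2-fold after quantile normalization. MRPL10, the stalk base protein, was at 451 for HT-29, 323 for MCF10A and 205 for MDA-MB-436. MRPS10 was at 669, 517 and 324 in that order and MRPL20 at 968, 889 and 471. In these 3 genes the lines kept the order HT-29, MCF10A, MDA-MB-436. The second cluster of MRPL20, at 794, 771 and 470.07, had the same order, with a log2 difference of 0.76 between HT-29 and MDA-MB-436 against 1.04 for the brighter cluster.

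The 3 lower genes were MRPL34, MRPS25 and MRPS21. MRPS25 was at 135 for HT-29, 233 for MCF10A and 378 for MDA-MB-436, 2.81-fold lower in HT-29 than in MDA-MB-436. MRPS21, a relative of a bacterial small-subunit protein, was at 889.8, 1491 and 1783, just past 2-fold, and fell short of 2-fold after median centring. For both the order of lines was the reverse of that of MRPL10. MRPL35 and MRPL39 passed 2-fold in this direction only after quantile normalization and were 1.78-fold and 1.73-fold lower as deposited.

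Stretches of promoter are shown for members that carry the largest differences and for members that hold the motifs counted below. They end at the base before the RefSeq transcription start (GRCh38.p14) and run 5′ to 3′ on the strand of the gene. MRPL34 is at chr19:17292423-17292572 (+), MRPS25 at chr3:15065316-15065465 (-), MRPL36 at chr5:1799838-1799987 (-), MRPL20 at chr1:1407294-1407443 (-) and MRPL58 at chr17:75012520-75012669 (+), with 150 bases each. For MRPL49, chr11:65122135-65122182 (+), the 48 bases between its start and the opposite start of FAU, a gene for a protein of the cytosolic ribosome, are given. Capitals mark matches, on either strand, to CCGGAAG (ETS family), the NRF1 motif, AAGATGGC (YY1), CACGTG (E-box), GGGGCGGGG (SP1), CCAAT or TATAAA.
MRPL34: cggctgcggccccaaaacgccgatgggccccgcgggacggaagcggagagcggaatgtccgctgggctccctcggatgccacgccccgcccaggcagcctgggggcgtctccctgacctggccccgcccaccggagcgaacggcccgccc
MRPL49: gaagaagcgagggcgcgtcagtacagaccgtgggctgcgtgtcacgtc
MRPS25: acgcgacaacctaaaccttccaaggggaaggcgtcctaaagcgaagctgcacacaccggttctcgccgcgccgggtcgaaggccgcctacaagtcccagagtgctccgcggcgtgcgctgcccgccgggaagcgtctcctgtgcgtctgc
MRPL36: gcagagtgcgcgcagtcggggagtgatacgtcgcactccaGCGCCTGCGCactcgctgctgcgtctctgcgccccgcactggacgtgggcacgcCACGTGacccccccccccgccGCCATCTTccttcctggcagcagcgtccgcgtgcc
MRPL20: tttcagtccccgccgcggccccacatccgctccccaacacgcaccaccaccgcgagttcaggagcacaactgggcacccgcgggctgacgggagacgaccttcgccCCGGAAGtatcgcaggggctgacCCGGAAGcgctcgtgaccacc
MRPL58: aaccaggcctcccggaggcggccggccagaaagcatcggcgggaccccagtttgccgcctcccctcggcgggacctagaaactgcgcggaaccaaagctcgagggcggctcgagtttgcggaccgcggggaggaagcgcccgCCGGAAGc

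ETS factors such as GABP, NRF1 and YY1 are known as activators of nuclear genes for mitochondrial proteins. In windows of 250 bases before to 50 after the start, found for 60 of the 67 members, CCGGAAG was in 24 promoters, or 40%, against 17.9% of 8748 promoters of genes above background and 10.7% of all 27305. AAGATGGC was in 17, or 28.3%, against 5.18% and 3.03%. The NRF1 motif was in 6, or 10%, against 11% and 6.28%. The ETS and YY1 motifs were thus more frequent in the members than in genes above background, whereas the NRF1 motif was not. Matches lay near the start: within 50 bases of it for 20 of the 24 ETS promoters, and for YY1 the nearest match followed the start in 13 of 17. Both ETS and YY1 were present in 6 members, and 22 had none of the 3 motifs, among them MRPL34, MRPL49 and MRPS25.

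The other motifs were at or below the share of genes above background. CACGTG was in 6.67% of member promoters against 10.1%, GGGGCGGGG in 25% against 27.6%, CCAAT in 28.3% against 36.5% and TATAAA in 3.33% against 6.24%. Member promoters had a median of 60.8% G and C and 24 CpG, against 65.3% and 26 for genes above background. Members with and without CCGGAAG had median log2 differences of -0.53 and -0.54 for MDA-MB-436 minus MCF10A and -0.17 and -0.43 for HT-29 minus MCF10A. For AAGATGGC the pairs were -0.67 and -0.41, and -0.21 and -0.33. All 6 members with the NRF1 motif, namely MRPL14, MRPL17, MRPL30, MRPL36, MRPS9 and MRPS33, were highest in MCF10A, against 34 of the 54 without it.

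A start on the opposite strand within 1000 bases upstream was found for 19 of the 60 members, or 31.7%, against 22.7% of genes above background and 16.6% of all promoters. MRPL46 and MRPS11, of the large and the small subunit, are such a pair, with starts 320 bases apart. They were among the few members highest in MDA-MB-436, by 1.22-fold and 1.39-fold over MCF10A. Of 7 measured pairs whose partner is no member, each comparison had 3 in which both genes had the same sign, and in 1 pair, MRPS18B with PPP1R10, the signs matched throughout. For HT-29 minus MDA-MB-436 the log2 differences of MRPS18B and PPP1R10 were 0.69 and 0.86. MRPL32 and its partner PSMA2, a proteasome subunit gene, were both lower for MDA-MB-436 minus MCF10A, at -0.58 and -0.46. MRPS27 was 2.57-fold lower in MDA-MB-436 than in MCF10A, whereas its partner PTCD2 was at 151 against 135, and the MRPL30 partner MITD1 was highest in HT-29, at 108, where MRPL30 was lowest.

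The genes beside each member on the chromosome were compared with it, using up to 5 measured genes on each side that were above background. For members at least 2-fold apart, the median of the neighbours had the sign of the member in 11 of 11 cases for MDA-MB-436 minus MCF10A, 9 of 9 for HT-29 minus MCF10A and 9 of 9 between HT-29 and MDA-MB-436. Among all genes at least 2-fold apart, the shares were 69.1%, 63% and 67.1%, and among the other members 36 of 56, 28 of 58 and 34 of 58. Many of these neighbour medians were small, and some genes enter several comparisons through shared arrays. They passed 2-fold only for MRPS21, at -1.27, and MRPL10, at 1.08, both for HT-29 minus MDA-MB-436. The neighbours of MRPS21 included TARS2, the mitochondrial threonyl-tRNA synthetase gene, at -1.49. MRPL34 stood apart from its neighbours, whose median was -0.49 against MCF10A. There BABAM1 was at -1.51, GTPBP3, a mitochondrial tRNA modification enzyme gene, at -0.95, and the interferon-induced gene BST2 at 6.79. No neighbour of MRPL49 was as far above MCF10A as it was.

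**Figure D4:**
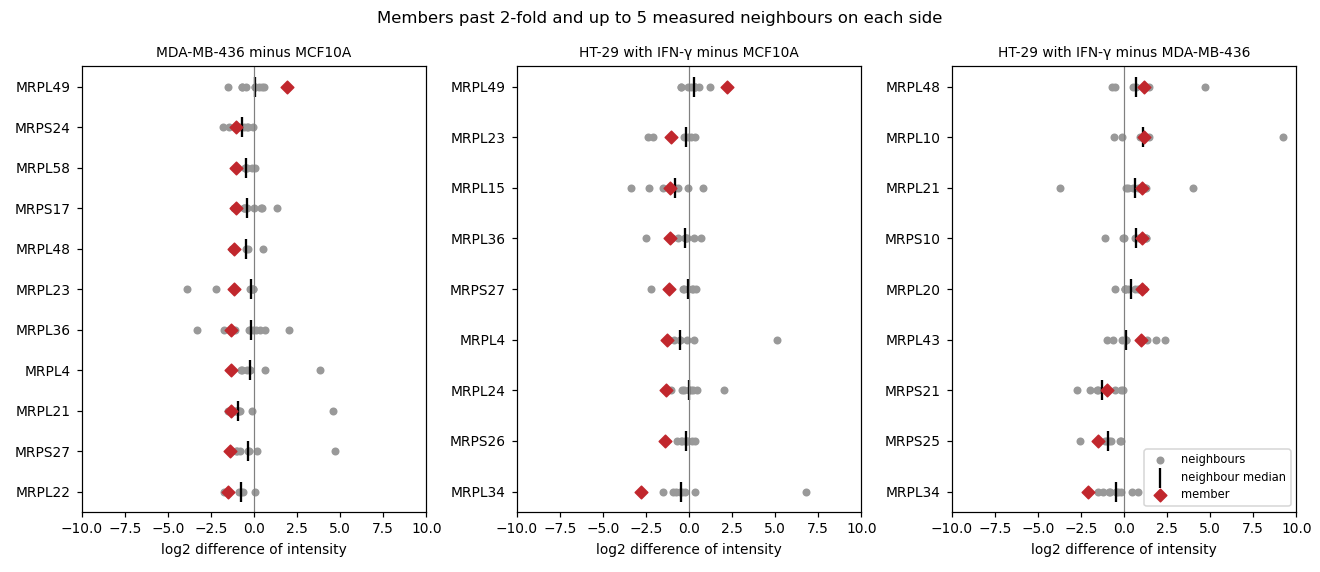
Log2 difference of intensity of each member past 2-fold (diamond), of its measured neighbours above background (grey) and their median (bar), 1 panel per comparison. The bar lies on the member's side of 0 in all 29 cases, and mostly nearer to 0 than the member.

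Other genes of mitochondrial translation were taken from lists. The ribosome subunits with other symbols that could be measured were DAP3, a GTP-binding small-subunit protein, at 229 for HT-29, 266 for MCF10A and 215 for MDA-MB-436, CHCHD1 at 165, 151 and 145, and GADD45GIP1 at 108, 170 and 151. None was 2-fold apart in any pair. Of 18 assembly factors, 4 fell short of MCF10A by 2-fold or more in MDA-MB-436, 3 did so in HT-29 and none exceeded it by as much. These are 22.2% and 16.7%, against 12.2% and 14.3% of genes above background. After quantile normalization 3 fell short in MDA-MB-436 and 1 exceeded MCF10A. The medians were -0.29, or -0.17 after quantile normalization, and -0.40. RPUSD4, a pseudouridine synthase, was at 39.8 in MDA-MB-436, 208 in MCF10A and 124 in HT-29, 5.22-fold below MCF10A in MDA-MB-436. METTL17 was at 140 for HT-29, 365 for MCF10A and 417 for MDA-MB-436, and MTERF3 at 60.1, 158 and 63.4. Neither shared one pattern with the other, since METTL17 was low in HT-29 alone and MTERF3 in both.

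Translation factors, 14 in all, had medians of -0.19 and -0.38 against MCF10A, of which the first was -0.0069 after quantile normalization and -0.30 after median centring. In each comparison against MCF10A 1 of the 14 was at least 2-fold lower, or 7.14%, fewer than the share of genes above background. MTFMT, which formylates the initiator tRNA, was 2.47-fold lower in HT-29, MTRF1, a release factor family member, 2.25-fold lower in MDA-MB-436, and OXA1L, the insertase that receives the new chains, 1.96-fold lower in HT-29. Of 17 mitochondrial tRNA synthetases, 5 lay 2-fold or more under MCF10A in MDA-MB-436 and 4 in HT-29, or 29.4% and 23.5% against 12.2% and 14.3% of genes above background, with 1 above it in HT-29. The 5 became 2 after quantile normalization. The list's medians against MCF10A were -0.22 and -0.37, the first of them -0.087 after quantile normalization, and 7 of the 17 were higher in MDA-MB-436 than MCF10A. NARS2 was at 251 in MDA-MB-436, 569 in HT-29 and 1023 in MCF10A, IARS2 at 374, 188 and 855, and FARS2 at 111, 151 and 425. These 3, named for their wide range, were highest in MCF10A, but over the list 8 of 17 were highest there, 6 in MDA-MB-436 and 3 in HT-29. For 13 genes of mitochondrial DNA expression the medians were -0.62 and -0.47, with 3 and 1 at least 2-fold lower and none higher. These are 23.1% and 7.69%, above and below the shares of 12.2% and 14.3%. Among them POLRMT, the mitochondrial RNA polymerase, was 2.10-fold and 2.31-fold lower, TFB2M 2.35-fold and 1.91-fold lower, and the helicase gene TWNK was at 63 in MDA-MB-436, 169 in MCF10A and 224 in HT-29.

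Nuclear genes of the respiratory chain had medians of -0.36 for MDA-MB-436 and -0.57 for HT-29 against MCF10A, with 4 and 7 of 47 at least 2-fold lower and none higher. These are 8.51% and 14.9%, against 12.2% and 14.3% of genes above background, so the counts were below or near that share. After quantile normalization the median for MDA-MB-436 was -0.12, with 1 gene lower and 1 higher. COX6C was at 353 in MDA-MB-436, 341 in HT-29 and 906 in MCF10A, NDUFA7 at 666.5, 340 and 882, and UQCR11 at 192, 137 and 340. Proteins of the cytosolic ribosome, 53 in all, had medians of -0.43 and -0.042 against MCF10A, and 0.49 for the remaining pair of lines. After quantile normalization they were -0.24, -0.066 and 0.19. As deposited, 2 genes lay 2-fold or more under MCF10A in MDA-MB-436, and 2 exceeded MDA-MB-436 by as much in HT-29. Each count was 3.77% of the list, below the 12.2% and 15.8% of genes above background. The counts became 1 and 0 after quantile normalization. HT-29 and MCF10A were nearly level in the genes of the cytosolic ribosome, where the mitochondrial ribosome had -0.33. RPL27A, at 463 in MDA-MB-436, 968 in HT-29 and 1376 in MCF10A, had their widest range, followed by RPL22 and RPS25 at 2.07-fold and 2.06-fold. Differences between the lists were not tested.

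**Figure D5:**
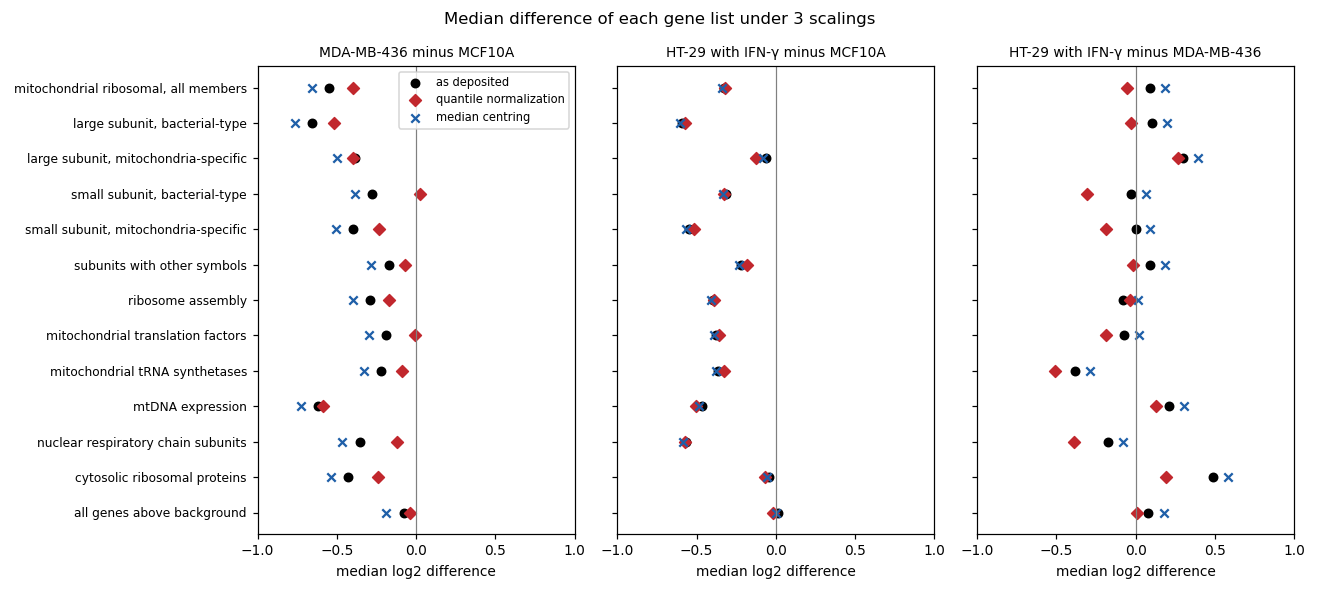
Median log2 difference of each list in the 3 comparisons, with the arrays as deposited (circles), quantile normalized (diamonds) and median centred (crosses). All members lie at -0.55, -0.33 and 0.089 as deposited, and in the middle panel the scaling hardly moves any list.

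Regulators of mitochondrial gene expression were measured as single genes. MYC was at 1630 for MCF10A, 1215 for HT-29 and 687 for MDA-MB-436. ESRRA, an orphan nuclear receptor gene, was at 391, 254 and 245, and PPARGC1B, a coactivator gene, at 151, 57.7 and 108. NRF1 was highest in HT-29, at 160, against 111 in MCF10A and 92.4 in MDA-MB-436. PPARGC1A was above background only in MDA-MB-436, at 34.4, at least 1.15-fold higher than in either other line. With 3 arrays no relation between a regulator and the members could be tested.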

How the data were processed

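Total RNA of 3 cell lines, grouped by the labels into 3 groups of 1 array, was turned into biotin-labelled cRNA for exon arrays, as the labels' protocols state. Deposited for every array were linear intensities of 18708 transcript clusters. How the authors summarised, background-corrected and normalized them is not given in the sources used here. Build hg19 stands in the submitters' processing notes. The columns differ in their quantiles, so part of a small difference can come from scaling. Clusters with 1 symbol in the platform annotation (14733, of which 14705 matched by gene identifier to RefSeq, GRCh38.p14, used for names and gene order) were used; 2875 had several symbols and 1100 were unnamed. Probes of related genes and pseudogenes can share signal.

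Intensities were log2 transformed and subtracted between arrays. A gene was counted at 2-fold or more, on the measured values, with its brighter array above background, and a fold against a value under background was computed against the background. The members, lists and named genes (every member past 2-fold, the 5 largest differences each way, the 5 smallest ranges, and the 3 widest ranges of each list) were chosen with earlier results of these data known. TFB1M, AURKAIP1, PTCD3, GABPA and other listed genes without a cluster of their own were not analysed here. The counting step was tested on simulated data, with bright genes changed 4-fold. Such changes lie well past the 2-fold threshold, so this checked the code and not calls near the threshold. The number of arrays limits the precision. Alternatives were quantile normalization, median centring, a background floor, no filter or the 99th percentile, folds of 1.5 and 4, the median over clusters and symbols as listed. The NRF1 motif was searched by its consensus on both strands. Software was Python 3.11.15 with pandas 2.3.3, numpy 2.4.6 and, for plots, matplotlib 3.10.9.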

Additional observations from a re-analysis of the deposited data

How the results depend on the processing

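The median for MDA-MB-436 minus MCF10A, -0.55, was -0.40 after quantile normalization and -0.66 after median centring, and that for HT-29 minus MDA-MB-436, 0.089, turned to -0.052 after quantile normalization, when 2 members were called higher and 5 lower. At a fold of 1.5 the counts were 2 higher and 31 lower for MDA-MB-436 minus MCF10A, 1 higher and 25 lower for HT-29 minus MCF10A, and 15 higher and 8 lower for HT-29 minus MDA-MB-436. At a fold of 4 they were 0 and 0, then 1 and 1, and then 0 and 1. The cause of these shifts was not tested beyond what the thresholds themselves fix. The other alternatives moved no median by 0.1 or more and no count by over 1.5 times. Of 490 values of named genes under alternatives, 417 kept their sign and moved by less than 0.1 on the log2 scale, and 0 differences past 2-fold changed sign. No paired analysis was possible because each line had 1 array and the result comes from no test. Values near background, such as those of MRPL49 and of MRPL34 in HT-29, are the least precise.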
